A study of Mus musculus with 15 samples.

Results

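The transcripts described here encode the nuclear-encoded subunits of the respiratory chain and the ATP synthase, with a few factors that carry the same gene names. A transcript was taken when its gene symbol in GENCODE M21 starts with Nduf, Uqcr, Atp5, Cox4, Cox5, Cox6, Cox7 or Cox8, or is Sdha, Sdhb, Sdhc, Sdhd or Cyc1. This gave 95 transcripts of 94 symbols among the 21727 transcripts counted. The rule reads gene symbols and no measured value, but it was set with earlier results of these data known. Of these, 86 passed the filter on low counts that left 10085 transcripts for testing. By complex they were 34 subunits of complex I, 8 complex I assembly factors of the Ndufaf series, 4 subunits of complex II, 9 of complex III, 14 of complex IV, 16 of the ATP synthase, and Atp5s.

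The cells were mouse embryonic stem cells (mESCs) of the E14Tg2a.4 line, grown with leukemia inhibitory factor, in 3 forms: WT, eS27-FLAG (here Rps27-FLAG) and eS27L-FLAG (here Rps27l-FLAG). In the tagged lines a 3xFLAG epitope had been placed by CRISPR at the C terminus of the ribosomal protein Rps27 or of its paralog Rps27l, on both alleles of the endogenous gene, and each line was represented by 3 independently selected clones. All lines derive from the same parental line and none carried another edit named in the labels, so that clone and tag differ together between lines. The libraries hold ribosome-protected fragments (RPFs), taken either from the whole ribosome population of each of the 9 clones (total RPFs) or from the ribosomes that anti-FLAG beads pulled down in the 6 clones with a tag (IP RPFs), so that 5 conditions have 3 libraries each, 15 in all.

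The respiratory chain passes electrons from NADH and succinate through complexes I, II, III and IV to oxygen, pumps protons across the inner mitochondrial membrane at complexes I, III and IV, and the ATP synthase uses the returning protons to make ATP. Most subunits are encoded in the nucleus, read by cytosolic ribosomes and imported, while a small core is encoded by mitochondrial DNA and read by mitochondrial ribosomes, which contain neither Rps27 nor Rps27l. Pluripotent stem cells of the naive state are known to use both glycolysis and respiration.

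Rps27, the tagged gene of one line, had 0 counts in all 15 libraries, and Rps27l had between 655 and 1151 counts in each, so that the counts of the tagged genes do not check the line labels. The libraries held between 3972152 and 8064166 counts. All 10 stem cell markers were over 2 CPM, which is the count scaled to a common library size, in every library, among them Pou5f1 and Nanog, with a summed level of 4070 to 4620 CPM in total RPFs and 4900 to 5100 CPM in IP RPFs. Over 2 CPM in every library were 1 of 7 fibroblast or feeder cell markers, 0 of 5 endoderm markers, 1 of 4 trophectoderm markers (Tfap2c), 0 of 3 mesoderm markers and 1 of 3 neural markers (Tubb3). Their part in the results was not tested. In bulk libraries such as these, fewer cells with a transcript and fewer fragments of it per cell cannot be told apart.

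One protein of the ATP synthase, subunit c, whose ring in the membrane turns as protons pass, is made from 3 genes, and the sequences show how their fragments were told apart. Atp5g1 (chr11:96068852-96075670), Atp5g2 (chr15:102662864-102671127) and Atp5g3 (chr2:73908447-73911326), all on the minus strand of GRCm38, differ in the peptide that directs import and end in 78 codons for 1 identical protein stretch, the longest that all share up to the stop codon. These 234 bases of each coding sequence are given 5′ to 3′ from GENCODE M21 on GRCm38, with capitals at the 63 positions where the 3 do not all hold the same base.
Atp5g1: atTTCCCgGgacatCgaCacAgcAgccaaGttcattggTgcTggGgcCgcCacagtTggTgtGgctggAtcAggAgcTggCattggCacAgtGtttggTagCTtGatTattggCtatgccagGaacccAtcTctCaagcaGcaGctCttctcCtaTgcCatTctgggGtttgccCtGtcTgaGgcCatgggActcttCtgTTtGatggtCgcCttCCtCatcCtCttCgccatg
Atp5g2: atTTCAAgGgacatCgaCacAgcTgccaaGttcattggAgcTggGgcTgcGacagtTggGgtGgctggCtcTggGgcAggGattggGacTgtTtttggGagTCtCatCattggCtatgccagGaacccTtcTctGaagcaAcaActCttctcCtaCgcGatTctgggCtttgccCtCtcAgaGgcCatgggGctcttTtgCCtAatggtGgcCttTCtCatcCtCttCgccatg
Atp5g3: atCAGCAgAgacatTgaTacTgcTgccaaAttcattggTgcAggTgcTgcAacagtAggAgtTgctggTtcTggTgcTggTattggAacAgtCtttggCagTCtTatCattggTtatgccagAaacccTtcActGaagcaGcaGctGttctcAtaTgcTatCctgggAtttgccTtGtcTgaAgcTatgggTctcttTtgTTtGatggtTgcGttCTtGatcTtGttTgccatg
Of the 63 positions, 55 were the third base of a codon and 8 were the first or second base. Atp5g1 and Atp5g2 differed at 36 bases, Atp5g1 and Atp5g3 at 50, and Atp5g2 and Atp5g3 at 53. No window of 28 bases, about the length of an RPF, was the same in any pair, so that a fragment of the shared protein stretch still names 1 of the 3 genes, though not against the pseudogenes described next.

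Cox7c, a small subunit of complex IV, shows the opposite case. It was listed at 0 counts in all 15 libraries, which are uniquely aligned fragments only. Its counted stretch of 129 bases, which starts at base 46 and ends at base 174 of a 189-base coding sequence (chr13:86044816-86046904, minus strand), is given beside the same stretch of Gm10012, an annotated pseudogene transcript on chromosome 17 that was in the count table and also had 0 counts. Capitals mark the 1 base that differs.
Cox7c: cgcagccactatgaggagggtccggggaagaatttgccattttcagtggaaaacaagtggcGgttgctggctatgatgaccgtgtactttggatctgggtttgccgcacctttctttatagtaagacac
Gm10012: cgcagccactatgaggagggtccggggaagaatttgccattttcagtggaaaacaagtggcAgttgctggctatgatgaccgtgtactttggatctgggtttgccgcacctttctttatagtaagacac
Of the 102 windows of 28 bases in the Cox7c stretch, 74 were identical in Gm10012, and every window was found in some transcript of another gene. Whether this is why the count was 0 was not tested.

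Of the 95 transcripts, 40 shared no window of 28 bases with a GENCODE M21 transcript of another gene, 39 shared more than 10% of their windows and 21 more than 50%. All windows were shared in Atp5g1, Atp5g2, Atp5l, Cox7c, Ndufab1 and Ndufb4, mostly with processed pseudogenes, and 4 of these 6 still had at least 100 counts in every library. Which of the pseudogenes stood in the authors' alignment reference is not given in the sources used here. Levels of all transcripts with many shared windows, and their ranks given below, are therefore uncertain. Among those named below, Uqcrb shared 221 of 246 windows, Cox7a2l 202 of 246 and Cox6c 112 of 141. Within the count table itself, 8 of the 95 shared a window with another listed transcript.

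The 9 transcripts that did not pass the filter fell into 2 kinds. Cox4i2 (7 to 29 counts over the 15 libraries), Cox6a2 (1 to 7), Cox7b2 (1 to 4), Cox8b (0 to 2) and Cox8c (1 to 8) are isoforms of complex IV subunits known from lung, striated muscle or testis. Their ubiquitous counterparts Cox4i1, Cox6a1, Cox7b and Cox8a were all tested. The other 4 were Cox7c (0), Ndufb4 (0 to 1), Ndufs5 (0 to 5) and the second transcript of Atp5o (0 to 1), which code for ubiquitous subunits or part of them. Ndufb4 shared 300 of its 300 windows with Ndufb4c and Ndufs5 shared 179 of 231 with BC002163, and the second Atp5o transcript shared 416 of 443 with other listed transcripts.

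Levels were compared between genes as TMM-normalised CPM per kilobase of counted coding sequence (CPM per kb), with the mean and SD of the 3 WT clones unless stated. The median over the 86 tested members was 301 CPM per kb in WT total RPFs, against 25.5 over all tested transcripts, and 83 of the 86 lay above the latter value. Members took between 1.62% and 1.71% of the counts in total RPF libraries and between 1.74% and 1.83% in IP RPF libraries. For WT replicate 1, as an instance of the precision, the share was 1.67% with a Wilson 95% interval of 1.66% to 1.68%, which covers counting error only. By complex, the medians were 684 CPM per kb for complex IV, 596 for the ATP synthase, 395 for complex III, 274 for complex II, 235 for complex I and 38.3 for the complex I assembly factors.

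**Figure D1:**
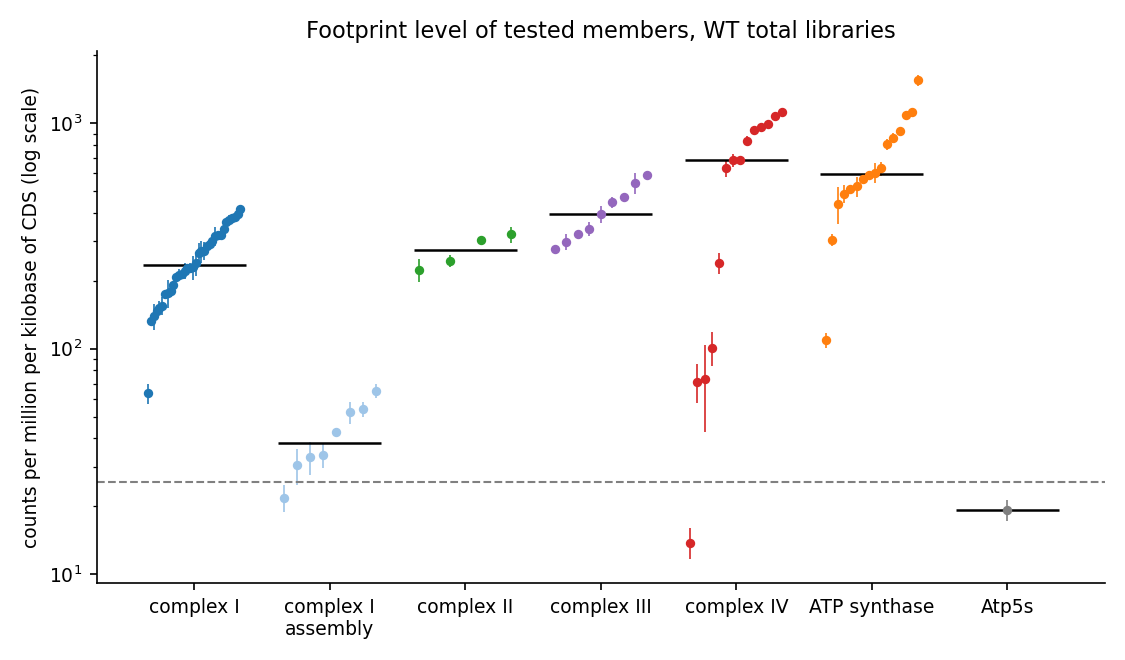
Level of each tested member in WT total RPFs by complex (CPM per kb of counted coding sequence, log axis); each point is the mean of 3 WT clones with its SD, horizontal bars are the medians of the groups, and the dashed line is the median of all tested transcripts (25.5). ATP synthase and complex IV subunits sat highest, with medians of 596 and 684 CPM per kb, and the assembly factors lowest, with a median of 38.3.

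Within the ATP synthase, the catalytic and soluble F1 head had the highest transcript of all members. Atp5b, the catalytic beta subunit, stood at 1552 ± 84.9 CPM per kb (SD, n = 3) and Atp5a1, the alpha subunit, at 1084 ± 52.2. The other F1 subunits stood lower, with Atp5c1 (gamma) at 510 ± 7.7, Atp5d (delta) at 487 ± 45.2 and Atp5e (epsilon) at 604 ± 62.9. The alpha and beta subunits are each present in 3 copies in the enzyme and gamma in a single copy, and the level of Atp5b over Atp5c1 was 3.04 ± 0.165 and that of Atp5a1 over Atp5c1 2.12 ± 0.0887. Over the 15 libraries the ratio of Atp5b to Atp5c1 stayed between 2.63 and 3.29, and that of Atp5a1 to Atp5b between 0.686 and 0.763 with a WT mean of 0.699 ± 0.0164. Atp5d and Atp5e, also single-copy subunits, had ratios of 0.955 ± 0.0778 and 1.18 ± 0.108 to Atp5c1. Atp5c1 shared 231 of its 807 windows with transcripts of other genes and Atp5b 103 of 1500. Ratios over Atp5c1, here and below, are therefore uncertain, and whether levels follow copy numbers was not tested.

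Of the 3 subunit c genes shown above, Atp5g3 was highest at 1119 ± 28.2 CPM per kb, followed by Atp5g2 at 919 ± 26.8 and Atp5g1 at 565 ± 18.1. Their values in the WT clones did not overlap, with Atp5g3 at 1144, 1088 and 1124, Atp5g2 at 905, 950 and 901, and Atp5g1 at 548, 563 and 584. As shares of their sum, Atp5g3 gave 0.43 ± 0.011, Atp5g2 0.353 ± 0.0106 and Atp5g1 0.217 ± 0.00641. The summed level over that of Atp5c1 was 5.1 ± 0.0792 in WT total RPFs and lay between 4.7 and 6.61 over all 15 libraries. The lowest members of the complex were Atp5l (subunit g) at 109 ± 8.11, Atp5o (the stalk subunit OSCP) at 304 ± 18 and Atp5k (subunit e) at 439 ± 83.3. All windows of Atp5l, Atp5g1 and Atp5g2 were shared with other annotated transcripts, and the Atp5o level comes from 1 of its 2 transcripts.

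Complex I levels were more even, from 63.4 to 417 CPM per kb. The highest were Ndufab1 (417 ± 2.09), the acyl carrier protein, then Ndufb6 (396 ± 7.48) and Ndufc2 (382 ± 0.815) of the membrane arm. The lowest were Ndufv3 (63.4 ± 6.42), Ndufa8 (133 ± 6.85) and Ndufb10 (139 ± 18.1). The 7 subunits of the catalytic core, which hold the flavin and the iron-sulfur clusters, had a median of 191 CPM per kb. The assembly factors, which are not part of the finished complex, ranged from Ndufaf5 (21.8 ± 2.93), Ndufaf6 (30.4 ± 5.53) and Ndufaf8 (33 ± 5.5) to Ndufaf4 (52.1 ± 5.94), Ndufaf3 (53.9 ± 4.16) and Ndufaf2 (65.2 ± 4.53). The highest assembly factor and the lowest complex I subunit, Ndufv3, did not differ beyond their spread. Atp5s, a coupling factor related protein, stood at 19.2 CPM per kb.

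The 4 subunits of complex II, which oxidises succinate, lay within a narrow range. Sdha, the flavoprotein, stood at 321 ± 26.3 CPM per kb, Sdhc at 303 ± 1.72, Sdhd at 245 ± 15.4 and the iron-sulfur subunit Sdhb at 224 ± 27. Relative to Sdha the ratios were 0.948 ± 0.079 for the membrane anchor Sdhc, 0.767 ± 0.0539 for the other anchor Sdhd and 0.701 ± 0.1 for Sdhb. Sdha and Sdhc did not differ beyond their spread, nor did Sdhd and Sdhb. In complex III the highest were Uqcrb (592 ± 13.6), Uqcr11 (545 ± 58.2) and Uqcrq (470 ± 15.1), all small subunits. The lowest were the Rieske iron-sulfur protein Uqcrfs1 (277 ± 7.9), cytochrome c1 encoded by Cyc1 (298 ± 23.4) and the core protein Uqcrc2 (323 ± 7.47). Cyc1 over Uqcrfs1 was 1.07 ± 0.0737.

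Complex IV had the widest range, from Cox5b at 13.8 to Cox4i1 at 1121 CPM per kb, and held both ubiquitous and tissue-restricted isoforms. Cox4i1 (1121 ± 34.9 CPM per kb), Cox6c (1075 ± 19.7) and Cox7b (989 ± 38.9) were highest, followed by Ndufa4 at 958, Cox5a at 934, Cox8a at 838, Cox7a2 at 685, Cox6a1 at 684 and Cox6b1 at 631. Cox7a2l, a factor of chain supercomplexes, stood at 240. Of the isoforms known from other tissues, Cox7a1 (heart and skeletal muscle) was at 71.3 ± 13.8 and Cox6b2 (testis) at 101, while Cox4i2, below the filter, was at 5.59. Cox7a2 over Cox7a1 was 9.85 ± 1.82 and ranged from 7.11 to 18.1 over 15 libraries, and Cox6b1 over Cox6b2 was 6.32 ± 0.61.

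A further pair, Ndufa4 and its hypoxia-related paralog Ndufa4l2, varied most among the clones. Ndufa4l2 stood at 107, 62.1 and 49.8 CPM per kb in WT, 38.8, 33.2 and 81.0 in Rps27-FLAG, and 19.4, 81.0 and 44.8 in Rps27l-FLAG total RPFs. The lines overlapped, and the ratio of Ndufa4 to Ndufa4l2 was 14.5 ± 5.1 in WT and between 9.07 and 48.1 over the 15 libraries. Cox5b, a ubiquitous subunit, was listed at 13.8 ± 2.13 CPM per kb, the lowest of all tested members. It shared 216 of its 300 windows with Gm11273, a transcript not in the count table, and all 300 when 1 mismatch was allowed, so that its level is uncertain.

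Sequence around the start codon was not used in the choice, and some members had letters there in common. The letters AAGATGGC, in which the start codon ATG is preceded by AAG and followed by GC, are known from a start context of transcripts with short leaders. Among the 86 tested members, 16 (18.6%) had these 8 letters at the start codon, against 421 of 9933 (4.24%) of all tested transcripts with enough leader annotated. The median leader of the members was 99 bases against 170 over all tested, and that of the 16 with the letters was 72, against 80 for all tested transcripts with them. In all, 7 members (8.14%) had a leader of at most 30 bases against 4.72% of all tested. The windows of 12 bases before and 12 from the start codon are shown, 5′ to 3′ on the coding strand, for examples from different complexes, with the 8 letters in capitals.
Atp5h: tagtatcccAAGATGGCtgggcgt
Ndufc1: ctgcggaacAAGATGGCgccgtcc
Ndufa9: ttgtgggagAAGATGGCggccgcc
Sdhc: ccggaactcAAGATGGCtgcgttc
Uqcrc1: ggaagttagAAGATGGCggcgtcc
They lie in Atp5h (chr11:115415689-115419962, minus strand), Ndufc1 (chr3:51404677-51408988, minus), Ndufa9 (chr6:126821721-126849125, minus), Sdhc (chr1:171127165-171150603, minus) and Uqcrc1 (chr9:108936633-108949623, plus), with coordinates on GRCm38. Transcripts with this context were found on both sides of the IP comparison described further on, with Atp5h at a log2 fold change of 0.20 and Ndufa9 at -0.28 in Rps27-FLAG.

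Promoters were described in the same manner for the 74 of 94 symbols with an entry, 79 promoters in all, from RefSeq on GRCm38, each from 250 bases before to 50 after the start of transcription. The NRF1 core letters CGCATGCG were found on either strand in 13.9% of them, against 4.38% of the promoters of tested transcripts and 1.87% of all promoters. NRF1 is a transcription factor known for its sites at respiratory chain genes. The YY1 letters AAGATGGC, which are the same letters as the start context and can be the same stretch in genes with a short leader, were found in 12.7%, against 4.92% and 2.75%. The ETS letters CCGGAAGT, bound by factors such as Gabpa, were found in 6.33% against 8.9% and 3.89%. A match of letters is a description and no shown binding site.

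The first comparison asked whether RPFs of these transcripts differed with the tag, and set total RPFs of the 3 lines against each other. There are no RNA libraries, so the amount of a transcript and the ribosomes on each copy cannot be told apart in RPF counts. No member was called (edgeR's quasi-likelihood test, adjusted p under 0.05 over all 10085 transcripts) in any of the 3 comparisons, where the share called among all transcripts was also 0% in each direction. At an unadjusted p under 0.05 there were 2 members higher and 0 lower in Rps27-FLAG against WT, 1 and 0 in Rps27l-FLAG against WT, and 1 and 1 in Rps27l-FLAG against Rps27-FLAG. Over all tested transcripts the shares at that p were 1.28% and 1.64%, 2.35% and 3.34%, and 2.86% and 2.9%, in the same order. Neither voom with limma nor DESeq2 called a member, nor did the fit with the replicate number as a block, in which 0% of all tested transcripts were higher and 0.00992% lower in the first comparison, 0.367% and 1.06% in the second, and 0.645% and 0.714% in the third. The lowest adjusted p of a member was 0.999, 0.821 and 0.803 in that order.

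The median log2 fold change of the members was 0.02, 0.02 and -0.03. Given as values only, the largest in Rps27-FLAG against WT were Ndufaf8 (0.22), Ndufaf4 (0.19) and Ndufb9 (0.19), and the lowest Ndufa4l2 (-0.54), Ndufaf7 (-0.12) and Cox5b (-0.11). In Rps27l-FLAG against WT they were Ndufaf8 (0.28), Cox6b2 (0.26) and Ndufa12 (0.22), with Ndufa4l2 (-0.59) and Ndufv3 (-0.21) among the lowest. In Rps27l-FLAG against Rps27-FLAG they were Cox7a1 (0.28), Ndufaf1 (0.22) and Atp5s (0.18), and Ndufv3 (-0.22), Ndufa11 (-0.19) and Ndufa1 (-0.19). The first 2 comparisons share the WT clones. The extremes were mostly transcripts of low level such as Ndufaf8, Ndufa4l2 and Cox7a1, described above.

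**Figure D2:**
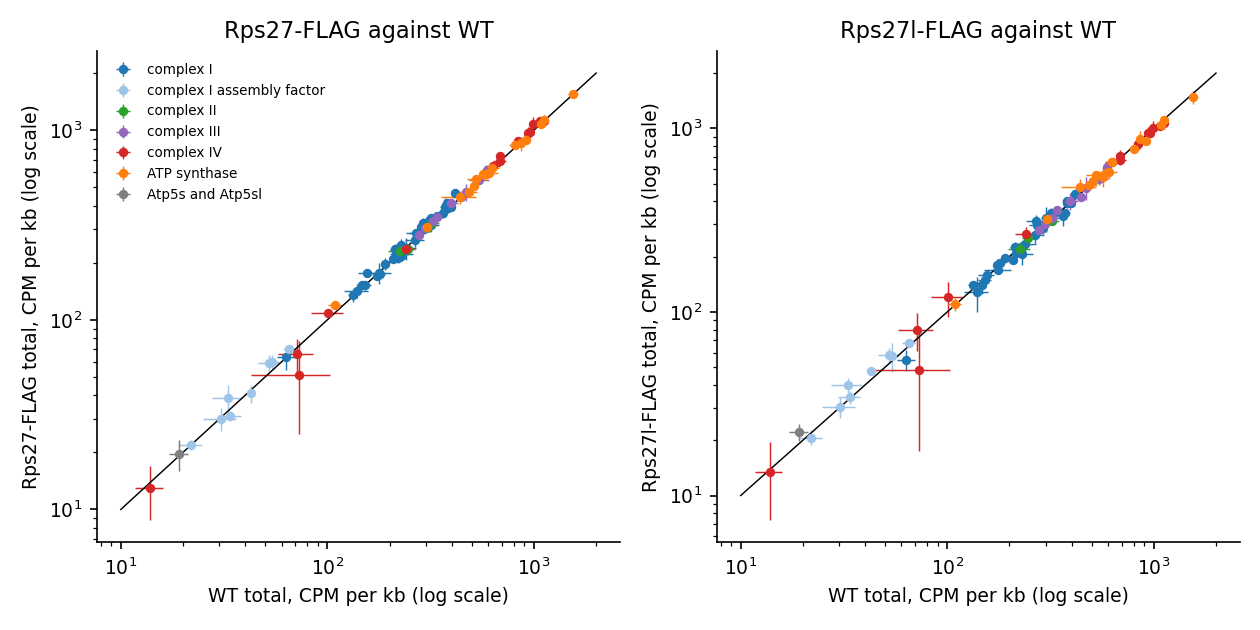
Level of each tested member (CPM per kb of counted coding sequence, log axes) in total RPFs of Rps27-FLAG or Rps27l-FLAG against WT; points are means of 3 clones with their SD, coloured by complex, and the line marks equal levels. The members lie along the line, with median log2 fold changes of 0.02 and 0.02, and the widest bars belong to low members such as Ndufa4l2 and Cox5b.

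The second comparison asked how ribosomes holding the tagged protein differ from all ribosomes of the same clones in the transcripts they occupy. There is no IP library of WT cells. What the tagged protein brings down and what the bead step retains without a tag therefore cannot be told apart in IP against total RPFs. In Rps27-FLAG, small subunits of several complexes were higher in the IP RPFs and the large enzymatic subunits Sdha and Ndufs1 were lower. 5 members were higher and 2 lower, while among all tested transcripts 0.327% were higher and 5.34% lower. Of the 86, 69 had a log2 fold change above 0 and the median was 0.18, against -0.01 over all tested transcripts. In 40 members all 3 IP clones lay above all 3 total clones, as in 11.4% of all tested transcripts, and in 8 all below, as in 16.9%. The median SE of the log2 fold change was 0.0778 for members and 0.131 for all tested transcripts. Members are thus called, or found apart, more readily at a given change, and the shares do not compare transcripts of like precision.

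Sdha had the lowest log2 fold change of the members. Its total RPF levels in the Rps27-FLAG clones were 341, 318 and 316 CPM per kb, and its IP RPF levels 264, 246 and 254, with no overlap. Its log2 fold change was -0.35 (SE 0.0595, adjusted p = 0.0141). Ndufs1, the largest core subunit of complex I, whose clusters carry electrons, had total levels of 195, 213 and 184 CPM per kb and IP levels of 150, 168 and 148, again apart. Its log2 fold change was -0.34 (SE 0.0776, adjusted p = 0.0434).

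Among the 5 higher members, Cox6c of complex IV had total levels of 1074, 1122 and 1141 CPM per kb and IP levels of 1272, 1378 and 1418, a log2 fold change of 0.29 (SE 0.0643, adjusted p = 0.0441). Cox6a1, of the same complex, had total levels of 689, 680 and 691 and IP levels of 791, 856 and 857, a log2 fold change of 0.28 (SE 0.0589, adjusted p = 0.0343). In both, the lowest IP clone lay above the highest total clone. Ndufa12, an accessory subunit of complex I, had total levels of 285, 296 and 280 and IP levels of 359, 339 and 345 (0.27, SE 0.0584, adjusted p = 0.0363). Ndufb6 of the membrane arm had total levels of 384, 406 and 391 and IP levels of 471, 468 and 486 (0.27, SE 0.0566, adjusted p = 0.0343). Atp5d of the F1 head had total levels of 488, 445 and 485 and IP levels of 560, 565 and 569 (0.26, SE 0.0599, adjusted p = 0.0484). The 5 are short, with coding sequences of 228 to 504 bases, against 1992 for Sdha and 2181 for Ndufs1.

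Each IP library has its partner among the total libraries of its clone, and the calls depended on using this pairing. With the clone as a block, 52 members were higher and 10 lower, where 18.3% of all tested transcripts were higher and 22.9% lower. In the fit without the block, leaving out replicate 1 gave 36 members among 1809 transcripts called, and leaving out replicate 2 or replicate 3 gave 0 among 0.

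In Rps27l-FLAG the 2 higher members were subunit c genes. Atp5g3 had total levels of 1101, 1139 and 1110 CPM per kb and IP levels of 1342, 1421 and 1343, a log2 fold change of 0.29 (SE 0.0479, adjusted p = 0.0201). Atp5g2 had total levels of 883, 847 and 839 and IP levels of 1015, 1064 and 1020, a log2 fold change of 0.27 (SE 0.0497, adjusted p = 0.0275). The third gene, Atp5g1, had a log2 fold change of 0.21 with an adjusted p of 0.317, and its clones overlapped. Ndufs1 was the 1 member lower, with total levels of 202, 187 and 199 and IP levels of 169, 165 and 161, and a log2 fold change of -0.25 (SE 0.0517, adjusted p = 0.0447).

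Among all tested transcripts 0.833% were higher and 2.27% lower in this line. The median over members was 0.17, against -0.03 over all tested transcripts, with 68 of 86 above 0. In 31 members all IP clones lay above all total clones, as in 9.22% of all tested transcripts, and in 7 all below, as in 14%. Here too the precision was unlike, with a median SE of 0.0841 for members and 0.134 for all tested transcripts. With the clone as a block 47 members were higher and 8 lower, where 12% and 19% of all tested transcripts were. Leaving out replicate 1 or replicate 2 in the fit without the block gave 0 members among 0 transcripts called, and leaving out replicate 3 gave 2 among 318. In each of the 6 tagged clones taken alone, the median log2 ratio of IP over total RPFs of the members lay between 0.14 and 0.19, and that of all tested transcripts between -0.04 and -0.01.

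**Figure D3:**
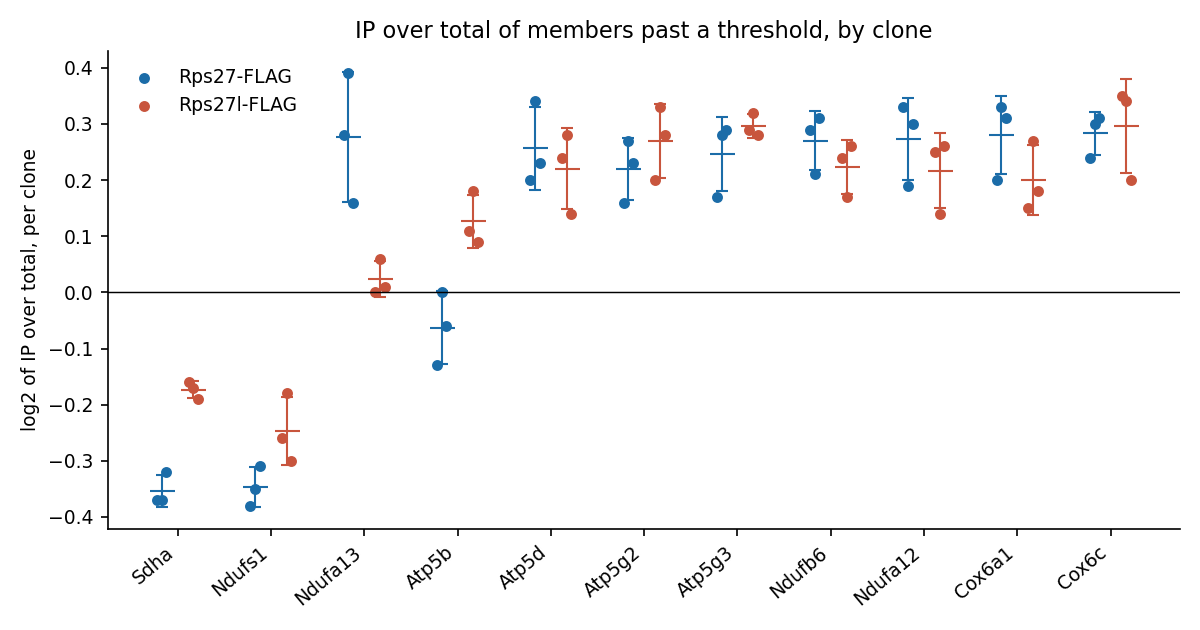
Log2 ratio of IP over total RPFs in each of the 6 tagged clones for the members named in the IP comparisons; each point is 1 clone, and bars give the mean and SD of the 3 clones of a line. Sdha and Ndufs1 lay below 0 in every clone, and Cox6c, Cox6a1, Ndufa12, Ndufb6, Atp5d, Atp5g2 and Atp5g3 above 0 in every clone.

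With the block, 44 members were higher in both lines, 8 were lower in both and none was called in opposite directions, while 21 were called in neither. Over all tested transcripts, 9.48% were higher in both, 15.5% lower in both, 52.8% called in neither, with 3 and 2 transcripts called in opposite directions. The fits use separate clones, while replicates of the same number share a sequencing batch in the sample table of the study. Among the 8 lower in both were Sdha, the core subunits Ndufs1 and Ndufv1, the accessory subunits Ndufa9 and Ndufa10, and the core proteins Uqcrc1 and Uqcrc2 of complex III. By complex, the median log2 fold change was 0.22 in both lines for the ATP synthase, with 11 members higher and 1 lower with the block in Rps27-FLAG, and 14 and 0 in Rps27l-FLAG. For complex IV the medians were 0.22 and 0.24, with 10 higher and 0 lower, and 9 and 0. Beside the counts of every complex stand 18.3% higher and 22.9% lower among all tested transcripts in Rps27-FLAG, and 12% and 19% in Rps27l-FLAG. Under 300 bases, 18 of 22 members were higher with the block in Rps27-FLAG and 17 in Rps27l-FLAG. Of the other 154 tested transcripts of that length, 75 and 47 were. From 300 to under 600 bases, 29 and 23 of 38 members were, and 436 and 283 of the other 987. Precision was unlike here too, with a median SE under 300 bases of 0.0875 for members and 0.143 for others in Rps27-FLAG, without the block.

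Complex III had medians of 0.22 and 0.17, with 5 higher and 3 lower, and 5 and 2. Complex I had medians of 0.15 and 0.13, with 23 higher and 5 lower, and 17 and 5, while its 7 core subunits had medians of -0.06 and -0.02. Complex II had medians of 0.13 and 0.09, with 3 higher and 1 lower, and 2 and 1. The assembly factors had medians of 0.06 and -0.04, and 0 of the 8 were called in either line with the block in edgeR, with 1 higher and 0 lower in Rps27-FLAG and 0 higher and 1 lower in Rps27l-FLAG at an unadjusted p under 0.05.

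The members are short, and longer coding sequences went with lower IP log2 fold changes among members and among all transcripts. The median coding sequence was 438 bases for members and 1440 for all tested transcripts. Across the 86 members, Spearman's rho between length and log2 fold change was -0.736 in Rps27-FLAG and -0.682 in Rps27l-FLAG, against -0.562 and -0.527 across all tested transcripts; these are across genes, which share their libraries and are not independent replicates.

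**Figure D4:**
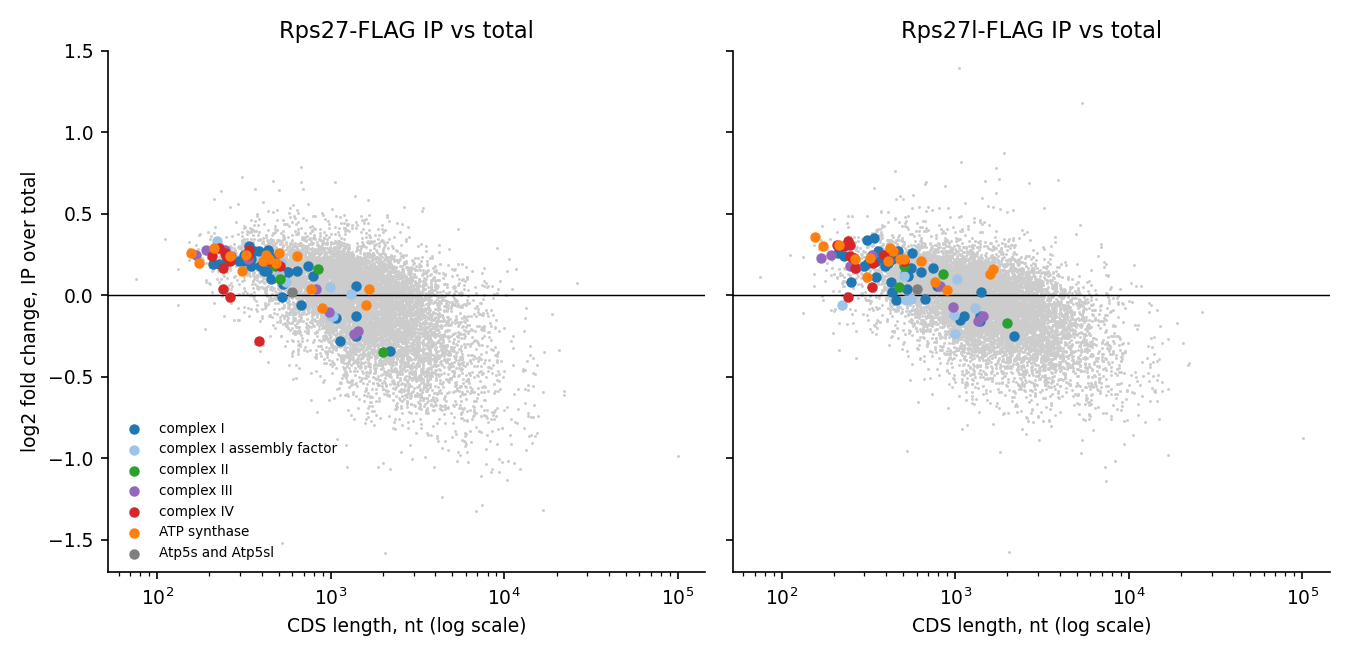
Log2 fold change of IP over total RPFs against length of the coding sequence (bases, log axis) in both tagged lines, with all tested transcripts in grey and the 86 members coloured by complex. Members fell with length, with a median of 0.24 under 300 bases in both lines and of -0.18 and -0.13 at 1200 bases or more.

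The members were set beside the other tested transcripts of like length. Under 300 bases, the 22 members had medians of 0.24 in both lines and the other 154 transcripts 0.20 and 0.17. From 300 to under 600 bases, 38 members had 0.20 in both lines and the other 987 had 0.18 and 0.13. From 600 to under 1200 bases, 16 members had 0.03 and 0.05 and the other 2777 had 0.08 and 0.04.

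At 1200 bases or more, 10 members, with a shorter median length of 1422 against 2070 bases in the other 6078, had -0.18 and -0.13 against -0.11 and -0.11. With the block, 6 of these 10 were lower in each line, as were 2106 of the other 6078 in Rps27-FLAG and 1772 in Rps27l-FLAG. Atp5a1 and Atp5b, with coding sequences of 1659 and 1587 bases, were among the 4 not called in Rps27-FLAG, at 0.04 and -0.06. They were called higher with the block in Rps27l-FLAG, at 0.16 and 0.13, as were 378 of the other 6078.

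When the trend with length was removed from each library, the median of the members became 0 in Rps27-FLAG and 0.03 in Rps27l-FLAG and no member was called without the block. With the block and the trend removed, 7 members were higher and 12 lower in Rps27-FLAG, where 17.5% and 13.6% of all tested transcripts were. The counts for Rps27l-FLAG were 18 higher and 10 lower, where 13.7% and 8.88% of all were. Sdha was then at -0.27 in Rps27-FLAG (adjusted p = 2.88e-17, edgeR with the block). The cause of the trend was not tested.

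The third comparison asked whether the IP effect differs between the tagged lines. It set IP over total RPFs of the Rps27l-FLAG clones against those of the Rps27-FLAG clones. The study reports a higher RNA concentration in the IP RPFs of Rps27-FLAG, and proposes that more anti-FLAG sites stayed free in Rps27l-FLAG. Without an IP library of WT cells, a difference between the proteins and one in what the beads retain cannot be told apart. 1 member was lower and 0 higher at an adjusted p under 0.05 and an absolute log2 fold change over 0.25, where 0.466% of all tested transcripts were higher and 0.0992% lower. At an unadjusted p under 0.05, 10 members were higher and 2 lower, where 7.33% and 4.74% of all tested transcripts were.

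The member called was Ndufa13 (chr8:69894180-69902558, minus strand), a complex I subunit also known as GRIM-19. Its log2 ratio of IP over total was 0.28, 0.39 and 0.16 in the Rps27-FLAG clones and 0.00, 0.06 and 0.01 in the Rps27l-FLAG clones. The clones of the lines did not overlap, with Rps27l-FLAG below as in 719 of all 10085 tested transcripts. The difference was -0.26 (SE 0.0703, adjusted p = 0.0249). It was not called by DESeq2 or without the clone block, at -0.26 in each, or with the length trend removed, at -0.23 (adjusted p = 0.0668). With replicate 1 or 2 of Rps27-FLAG or replicate 1 or 3 of Rps27l-FLAG left out it was not called either, at -0.27, -0.21, -0.25 and -0.26.

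Without the limit on the fold change, 2 members were higher, where 1.35% of all tested transcripts were, and 1 was lower, where 0.139% were. Atp5b had log2 ratios of -0.13, 0.00 and -0.06 in Rps27-FLAG and 0.11, 0.18 and 0.09 in Rps27l-FLAG, a difference of 0.19 (SE 0.0387, adjusted p = 0.000774). Sdha had -0.37, -0.37 and -0.32 against -0.16, -0.17 and -0.19, a difference of 0.18 (SE 0.0401, adjusted p = 0.0025). In both, every Rps27l-FLAG clone lay above every Rps27-FLAG clone, as in 916 of all 10085 tested transcripts. As values only, the largest differences upward were Cox5b (0.52), Ndufaf5 (0.24) and Atp5b. Over all members the median difference was 0.01.

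Beside the members stand the 13 subunits of the same complexes that mitochondrial DNA encodes. They took between 0.462% and 0.704% of counts in total RPFs, between 0.0347% and 0.0471% in the Rps27-FLAG IP RPFs and between 0.0462% and 0.0842% in the Rps27l-FLAG IP RPFs. In a fit that keeps them, all 13 were lower in the IP RPFs of both lines at an adjusted p under 0.05. The log2 fold changes ran from -3.65 for mt-Co1, a catalytic subunit of complex IV, to -5.11 for mt-Nd3 of complex I in Rps27-FLAG, and from -2.77 for mt-Co1 to -4.03 for mt-Nd4l in Rps27l-FLAG. Without replicate 1 of Rps27l-FLAG, 10 of the 13 were called in that line.

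**Figure D5:**
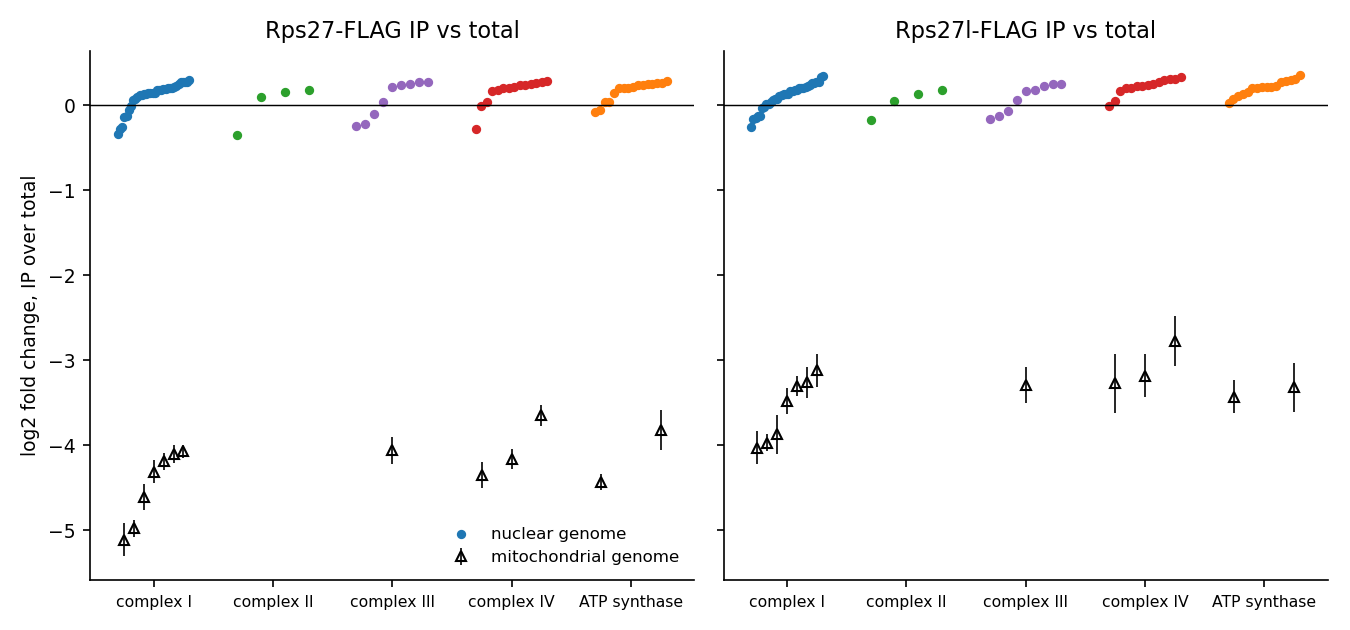
Log2 fold change of IP over total RPFs in both tagged lines for the nuclear-encoded subunits (filled circles) and the 13 mitochondrially encoded subunits (open triangles, with the SE of the fit) of each complex; complex II has no mitochondrially encoded subunit. The medians of the nuclear-encoded subunits by complex lay between 0.13 and 0.22 in Rps27-FLAG and between 0.09 and 0.24 in Rps27l-FLAG. Every mitochondrially encoded subunit lies at -3.65 or lower in Rps27-FLAG and at -2.77 or lower in Rps27l-FLAG.

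For mt-Co1, total RPF counts were 13620, 12834 and 9553 in the Rps27-FLAG clones and its IP counts 936, 869 and 486. In the Rps27l-FLAG clones they were 10191, 12610 and 6925, and 792, 1339 and 537. The log2 ratio of IP over total RPFs was higher in Rps27l-FLAG for 11 of the 13, by 0.76 to 1.23. The total RPFs enter this ratio. In them these transcripts stood at log2 fold changes between -0.53 (mt-Atp8) and -0.01 (mt-Nd6) in Rps27l-FLAG against Rps27-FLAG, none called without the block (adjusted p of at least 0.8 in edgeR) and 3 with it, mt-Atp8, mt-Cytb and mt-Nd5. The IP shares of the lines overlapped. mt-Atp8 (0.50, adjusted p = 0.288) and mt-Nd6 (0.62, adjusted p = 0.0767) did not pass.

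Other genes of the pathway were read in the same fits, from lists of assembly factors, coenzyme Q enzymes, regulators, cytochrome c and the ATPase inhibitor. Of 68 genes listed, 60 were tested. In Rps27-FLAG none was higher, with 5 at an unadjusted p under 0.05, and 2 were lower in edgeR's test, namely Lrpprc, which stabilises mitochondrial mRNAs (log2 fold change -0.50, adjusted p = 0.00535), and Coq6, a coenzyme Q synthesis enzyme (-0.43, adjusted p = 0.0228). In Rps27l-FLAG none was higher, with 2 at an unadjusted p under 0.05, and 1 was lower, again Lrpprc (-0.36, adjusted p = 0.0273). With the block there were 10 higher and 13 lower (16.7% and 21.7%, against 18.3% and 22.9% of all tested transcripts), and 5 and 7 (8.33% and 11.7%, against 12% and 19%). In the third comparison none of the 60 was called by edgeR, with 2 higher and 1 lower at an unadjusted p under 0.05. Atpif1, the inhibitor of the ATP synthase, stood at 0.16 and 0.21.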

How the data were processed

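Ribosome-protected fragments of 9 mESC clones were analysed in 15 libraries of 5 conditions. As the study's methods and the submitters' processing notes describe, the authors trimmed reads with cutadapt 2.4, removed duplicates by molecular identifier with UMI-tools 1.0.1 and aligned with Bowtie2 2.3.4.3 to transcripts of GRCm38 (mm10), discarding rRNA, tRNA and snRNA and keeping unique alignments. The deposited values are the authors' raw counts of A sites per coding sequence, without its first 15 and last 5 codons. No column of a sample was left out of the 15. Symbols, lengths and sequences came from GENCODE M21 on GRCm38, which is not the release the authors aligned to.

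Groups and clones came from the labels. Transcripts encoded by mitochondrial DNA (13) were left out, transcripts over 2 CPM in at least 14 libraries were kept, and TMM factors were set separately for IP and total libraries. Counts were tested with the quasi-likelihood test of edgeR 4.0.16 in R 4.3.3 with Benjamini-Hochberg adjustment over all tested transcripts and a threshold of 0.05, with the line as the term in total RPFs, the fraction in IP against total RPFs of a line, and the clone and the fraction within each line in the comparison of IP effects, where the absolute log2 fold change had also to exceed 0.25 and Tmod3 was left out. CPM per kb divides TMM-scaled CPM by the counted length, and log2 ratios of single clones were taken after adding 0.5 to each count.

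A replicate number of a tagged line stands for 1 clone in the labels, in IP and total alike. After centring on the condition, the pair of each of the 6 clones correlated across transcripts with r between 0.468 and 0.79. The median r was 0.443 between same-numbered libraries of different lines and -0.314 between libraries whose numbers differed. The block is the paired fit, since a pair is 1 clone. Libraries of a condition differed by a chi-squared of 1.78 to 10.3 per degree of freedom, so none was a copy. Alternatives were voom with limma 3.58.1, DESeq2 1.42.0, other scaling and filters, the block, removal of the length trend by loess (span 0.5), and leaving out each clone. The tests were tried on simulated data. Genes were named by a fixed rule: the members past a threshold (at most 5 per direction, otherwise the 3 with the largest change as values), the 3 highest and 3 lowest of each complex, families with isoforms, the F1 and complex II subunits and the tagged genes. Genes named outside it, such as those shown for their start context, for the calls made with the block or for shared windows, were chosen after their values were seen. The members and lists were chosen with earlier results of these data known. One transcript that the rule picks is not reported here. Protein sequences were not used here.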

Additional observations from a re-analysis of the deposited data

Results flagged for a closer look

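The IP effect (log2 of IP over total RPFs) of 3 members differed between the tagged lines by a test of the difference itself, edgeR's quasi-likelihood test with Benjamini-Hochberg adjustment over all 10085 transcripts. Ndufa13 was lower in Rps27l-FLAG than in Rps27-FLAG by -0.26 (SE 0.0703, adjusted p = 0.0249), Atp5b higher by 0.19 (SE 0.0387, adjusted p = 0.000774) and Sdha higher by 0.18 (SE 0.0401, adjusted p = 0.0025). Atp5b and Sdha lay under the limit of 0.25 set on the fold change. In each of the 3, the clones of the lines did not overlap, which is no separate support, since the test used the same clones. Among all 10085 tested transcripts, every Rps27l-FLAG clone lay above every Rps27-FLAG clone in 916 and below in 719.

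Of the 13 mitochondrially encoded transcripts, 11 differed between the lines by the same test, each with a higher ratio of IP over total RPFs in Rps27l-FLAG. The share of all 13 left in the IP RPFs was between 0.0347% and 0.0471% in Rps27-FLAG and between 0.0462% and 0.0842% in Rps27l-FLAG. In total RPFs the share was between 0.634% and 0.704% in Rps27-FLAG and between 0.462% and 0.636% in Rps27l-FLAG, so that the totals enter the difference too. The highest share in IP RPFs, 0.0842%, was that of Rps27l-FLAG replicate 2. The cause of the difference was not tested.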

How the results depend on the processing

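Between total RPFs, the count of members called was 0 under every alternative run, the replicate block included, with which 1, 144 and 137 of all 10085 transcripts were called. For IP against total RPFs the number of calls depended on the fit. In Rps27-FLAG, against 7 members called, DESeq2 gave 15, no filter on low counts 2, the replicate block 62, removal of the length trend 0, and both together 19, while all transcripts called went from 572 to 655, 458, 4154, 88 and 3141. In Rps27l-FLAG, against 3, DESeq2 gave 7, the replicate block 55, removal of the length trend 0, and both together 28, while all called went from 313 to 457, 3128, 6 and 2279. Leaving out each clone gave between 0 and 36 in Rps27-FLAG and between 0 and 2 in Rps27l-FLAG. The median log2 fold change of the members was steadier. It fell to 0 and 0.03 once the length trend was removed, with or without the replicate block, was 0.19 in Rps27l-FLAG with TMM over all 15 libraries together, and lay between 0.16 and 0.18 and between 0.15 and 0.18 with a clone left out.

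In the comparison of IP effects, against 1 member called, there were 0 with DESeq2, with no replicate block or with the length trend removed, 3 with no limit on the fold change, and between 0 and 1 with a clone left out. In alternatives chosen after seeing the data, the mitochondrially encoded transcripts called lower numbered 13 in Rps27-FLAG with each clone left out, and between 10 and 13 in Rps27l-FLAG. Causes not given by the construction of an alternative were not tested. Of the values for single named members under the alternatives, 51 no longer passed the threshold, 2 newly passed it, and 125 kept their direction and side. Counts of 0 to 29 per library limit what can be said of the tissue-restricted isoforms.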
